A study of Oryctolagus cuniculus with 30 samples.

Results

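A set of 73 array probes, of 14558 in the probe class named UF_Ocu_AF and 23369 on the array, read lower in closed rabbit ear wounds than in unwounded epidermis and were still lower 5 days later, whether or not the wound stayed under film. The members were chosen from the log2 of the authors' deposited intensities, by group means. The highest group mean had to reach 9, and unwounded skin had to exceed the wound at day 0, the uncovered wound at day 5 and the covered wound at day 5 by at least 0.8 each. The uncovered mean at day 5 could exceed day 0 by less than 1.5, and the arms had to lie within 0.8 of each other at day 3 and at day 5. These values chose the set, so the falls at day 0 and day 5 are a description and carry no test here.

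The study measured epidermal RNA on 30 1-colour Agilent arrays, 1 sample per array. The animals were female rabbits of the New Zealand White breed, a common laboratory rabbit. Unwounded normal skin epithelium gave 2 arrays, the wound at closure (day 0) 6, the uncovered wound 6 at day 3 and 6 at day 5, and the covered wound 5 at day 3 and 5 at day 5. Closure came 2 days after grids of shallow cuts had been made in the ear, and until then every wound of both ears lay under a clear adhesive film dressing, Tegaderm (1 layer), so the day 0 wounds had been covered too. Thereafter the right ear was bare and the left ear carried 4 further layers. The wounded epidermis was separated from the dermis in 0.5 M ammonium thiocyanate. All groups share sex, breed and body site. The labels give neither ages nor which animal gave which array. Arrays of a group may or may not come from separate animals, and the ears of an animal may have entered both arms. The p-values below therefore cover the spread from sample to sample, which may be technical.

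Epidermis is renewed from a basal layer whose cells stop dividing, differentiate and build the outer barrier as they move up. At a wound edge keratinocytes leave that programme, migrate and divide until the gap is closed, and the new sheet then thickens and differentiates again. An occlusive film keeps the new epidermis hydrated and is the treatment compared here. In a tissue extract, fewer cells of a type and less RNA per cell cannot be told apart. The array files give contig or clone names in place of genes, and no table used here pairs them with genes, so the members are named by probe and contig and their roles stay unstated. For the same reason the keratinocyte, hair follicle, sebaceous, dermal, muscle and immune marker lists drawn up for this tissue could not be applied, and the labelled epidermis was not checked against its markers.

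Each probe is a single 60-base oligonucleotide. The sequences below, 5′ to 3′ as the array files give them and in lower case throughout, belong to the 12 members whose smallest fall, over both unwounded arrays taken singly, was largest. They are the members a reader would look up first, and 3 contigs appear with both of their probes. Their position in the rabbit genome was not analysed here.
UF_Ocu_AF_108658: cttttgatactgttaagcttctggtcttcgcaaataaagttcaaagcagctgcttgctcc
UF_Ocu_AF_112273: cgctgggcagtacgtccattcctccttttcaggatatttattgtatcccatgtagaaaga
UF_Ocu_AF_112274: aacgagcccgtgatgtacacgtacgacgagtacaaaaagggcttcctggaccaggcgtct
UF_Ocu_AF_114083: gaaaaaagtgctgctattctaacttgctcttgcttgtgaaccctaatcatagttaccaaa
UF_Ocu_AF_114084: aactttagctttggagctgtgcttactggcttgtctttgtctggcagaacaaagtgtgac
UF_Ocu_AF_102740: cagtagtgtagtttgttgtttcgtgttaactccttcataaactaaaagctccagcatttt
UF_Ocu_AF_102739: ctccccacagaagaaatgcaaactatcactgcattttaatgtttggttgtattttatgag
UF_Ocu_AF_111809: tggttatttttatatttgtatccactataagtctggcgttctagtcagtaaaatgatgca
UF_Ocu_AF_108811: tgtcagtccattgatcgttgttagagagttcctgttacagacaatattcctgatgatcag
UF_Ocu_AF_113452: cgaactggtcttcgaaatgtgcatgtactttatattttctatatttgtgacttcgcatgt
UF_Ocu_AF_105013: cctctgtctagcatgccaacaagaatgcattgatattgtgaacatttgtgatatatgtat
UF_Ocu_AF_110467: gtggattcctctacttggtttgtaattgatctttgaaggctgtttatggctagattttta

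The 73 probes lie on 54 contigs, 19 contigs with 2 members and 35 with 1. The paired probes of a contig shared no run of more than 15 bases. Their values over the 30 arrays correlated with r from 0.672 to 0.991 (median 0.972), a description over arrays that share groups and slides. Both probes of each pair had met the rule, so a high r is partly set by the choice. The least correlated pair was UF_Ocu_AF_108658 and UF_Ocu_AF_108659. Members of different contigs shared no run longer than 11 bases. The 35 other contigs carried 34 further probes that were not members. Of these, 28 were well above background on at least 2 arrays, and 27 of the 28 were lower than unwounded skin at day 0 and in both arms at day 5. Their smallest fall ran from -0.19 to 1.75 with a median of 0.63, and it was under 0.8 for 24 of them. Most contigs with 1 member thus had a partner probe that was lower in the same 3 groups, with its smallest fall under the threshold. The other falls of such a partner could exceed it, as for UF_Ocu_AF_102452 (0.93 at day 0, 1.34 at uncovered and 0.67 at covered day 5). The share of the class lower in all 3 was not counted, and the partners were read against the same unwounded arrays. No agreement between partners is read from these counts.

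Over the members the unwounded level ran from 9.04 to 17.85 (median 11.11, log2 of the authors' intensity). The fall at day 0 ran from 0.81 to 3.48 (median 1.24). At day 5 the fall was 0.80 to 2.44 (median 1.22) in the uncovered arm and 0.80 to 2.72 (median 1.07) in the covered arm. On the authors' values the uncovered mean at day 5 minus that at day 0 ran from -0.99 to 1.46 with a median of -0.00. On the scaled scanner signals the median of the tested members was 0.45 uncovered and 0.47 covered, beside 0.47 and 0.33 over all tested probes. At day 5, 37 members in the uncovered arm and 30 in the covered arm lay below their own day 0 mean. Averaged over the 73 members, the arrays lay below the unwounded mean by 1.33 ± 0.14 at day 0 (SD, n = 6) and by 1.30 ± 0.08 (SD, n = 6) and 1.21 ± 0.19 (SD, n = 5) in uncovered and covered wounds at day 5. The 2 unwounded arrays themselves lay 0.32 above and below their mean.

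The threshold has no gap at its edge. The member nearest inside it was UF_Ocu_AF_114540, with a smallest fall of 0.8025, and the nearest probe outside was UF_Ocu_AF_108921 at 0.7977. Within 0.05 of the threshold lay 15 members above it and 25 other probes of the class below it. Detection differed among the members: 43 were well above background on all 30 arrays, 68 on both unwounded arrays and 1 on none. No member was saturated on any array.

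Both unwounded arrays lay above all 6 day 0 arrays for 59 of the 73 members, against 21.3% of the 7795 probes of the class with a group mean of at least 9. They lay above all uncovered day 5 arrays for 63 members (30% of the class) and above all covered day 5 arrays for 54 (11.9%). For 45 members they lay above all 17 arrays of the 3 groups. The share of the class was not counted for this joint condition and cannot exceed 11.9%. These counts restate the choice array by array, and nothing is read from them. The same holds for the calls of a limma fit over 12342 probes (Benjamini-Hochberg adjusted p under 0.05), which held 71 of the members. It called 67 of them lower than unwounded skin at day 0 (20.2% of all tested probes), 53 at uncovered day 5 (10.4%) and 34 at covered day 5 (1.27%). It called 0 higher in any of the 3 (17.1%, 21.9% and 6.6%), and 0 at an unadjusted p under 0.05. Against day 0, 28 were higher (44.1%) and 1 lower (21.4%) at uncovered day 5, and 29 higher (38.1%) and 4 lower (18%) at covered day 5.

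The set depends on which unwounded array is used. With unwounded replicate 1 alone the rule gave 44 probes, and with replicate 2 alone it gave 295. Replicate 1 kept 28 of the 73 members and replicate 2 kept 65. Only 20 members on 13 contigs (27.4%) met the rule with each array alone, 45 needed replicate 2 and 8 needed replicate 1. Replicate 2 read higher than replicate 1 for 61 members, by a median of 0.51 over the set, against 0.05 over the probes of the class with a group mean of at least 9, of which 54.7% were higher in replicate 2. All 3 falls were above 0 for 71 members in replicate 1 and for 73 in replicate 2, which the threshold on the mean of both arrays largely fixes.

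Probes chosen with 1 unwounded array can be read against the other, although both readings use the same wound arrays. Of the 44 probes chosen with replicate 1 alone, 22 (50%) had all 3 falls of at least 0.8 in replicate 2, where 3.99% of the 6866 probes within the level, arm and recovery limits did, and 36 had all 3 above 0. Of the 295 chosen with replicate 2 alone, 20 (6.78%) had all 3 falls of at least 0.8 in replicate 1, where 0.597% of the same probes did, and 196 had all 3 above 0. The unwounded arrays differed by at least 0.8 at 13.02% of the probes of the class with a group mean of at least 9. The same share between arrays of a wound group had a median of 3.82% to 11.7%, depending on the group, so the pair lay above the typical pair of every other group and within their full range of 0.590% to 26.9%.

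Unwounded replicate 2 and covered day 5 replicate 1 shared slide 6, the only slide of its scan day among 3 scan days. Without these arrays the rule gave 49 probes, 28 of them members. Unwounded and day 0 arrays shared no slide, so that contrast has no value within a slide. Within slide 5, unwounded replicate 1 exceeded uncovered day 5 replicate 1 by at least 0.8 at 46 of the 73 members (8.29% of the class with a group mean of at least 9) and by any amount at 71, with a median of 0.94. Within slide 6, unwounded replicate 2 exceeded covered day 5 replicate 1 by at least 0.8 at 60 members (6.57%) and by any amount at 72, with a median of 1.12. On slide 5 the unwounded array exceeded the day 3 array of the uncovered arm by a median of 0.47 and that of the covered arm by 0.38, by at least 0.8 at 20 members (3.09%) and 17 (3.27%). These arrays also entered the rule, so the day 5 values within slides restate the choice and nothing is read from them.

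On the authors' values UF_Ocu_AF_108658 was the brightest member and had the largest fall at day 0. On the scaled scanner signals other members fell further. Of these, UF_Ocu_AF_106356 and UF_Ocu_AF_110467 were well above background on no day 0 array. UF_Ocu_AF_105002 and UF_Ocu_AF_114083 were so on only 2 of the 6 day 0 arrays. No size is given for them here. The unwounded values of UF_Ocu_AF_108658 were 17.77 and 17.93, and its day 0 values ran from 13.19 to 17.12 (median 13.94). At day 3 it was back at 17.47 to 18.16 (median 17.62) uncovered and at 17.77, 17.93, 17.84, 18.04 and 17.94 covered, overlapping the unwounded arrays in both arms. At day 5 it was lower again, 14.34 to 17.04 (median 15.05) uncovered and 14.41, 17.74, 15.36, 15.18 and 14.86 covered. Among the day 5 arrays, covered replicate 2 (17.74) and then uncovered replicate 3 (17.04) came closest to the unwounded level. The second probe of its contig, UF_Ocu_AF_108659, held between 15.29 and 15.95 over all day 5 arrays and did not show this second drop: its mean was 15.53 ± 0.40 (SD, n = 6) and 15.55 ± 0.15 (SD, n = 6) at uncovered day 3 and day 5. The day 3 to day 5 course of this contig thus rests on 1 of its 2 probes.

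UF_Ocu_AF_112273 had unwounded values of 13.86 and 14.31 and stayed low at every later time. Day 0 ran from 10.19 to 13.22 (median 11.46) and uncovered day 3 from 10.20 to 12.41 (median 11.12). Covered day 3 gave 11.58, 11.06, 11.59, 12.34 and 11.94. At day 5 it ran from 11.01 to 14.25 (median 11.71) uncovered and was 12.07, 13.32, 12.74, 10.24 and 11.16 covered. Uncovered day 5 replicate 5 lay between the 2 unwounded values, and every other wound array lay below both. Its contig partner UF_Ocu_AF_112274 (unwounded 11.01 and 11.04) correlated with it at r = 0.972 and was high on the same day 5 array, at 11.25.

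UF_Ocu_AF_102739 and UF_Ocu_AF_102740, a pair on a single contig, were among the members furthest below unwounded skin at day 5. UF_Ocu_AF_102739 had unwounded values of 11.96 and 11.48 and day 0 values of 9.32 to 11.19 (median 10.02). At day 3 the uncovered arrays spread from 9.16 to 12.07 (median 11.37), and the covered arrays gave 10.89, 10.63, 11.19, 9.57 and 11.04. At day 5 the values were 8.83 to 9.67 (median 9.44) uncovered and 9.85, 9.18, 9.08, 8.52 and 8.79 covered. Its falls were 2.34 and 2.64 at day 5 and 1.56 at day 0, but day 0 and day 5 arrays overlapped, and day 5 minus day 0 was -0.50 ± 0.49 uncovered and -1.08 ± 0.52 covered on the scaled signals (SE, limma adjusted p = 0.37 and 0.080). For UF_Ocu_AF_102740 the falls were 2.42, 2.72 and 1.43, and day 5 minus day 0 was -0.87 ± 0.43 and -1.52 ± 0.46 (SE, limma adjusted p = 0.080 and 0.0059). The rule required day 0 and day 5 to be low and limited their uncovered difference. These p-values of both probes are therefore descriptive.

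UF_Ocu_AF_114083 had unwounded values of 10.08 and 10.24, above every wound array. Day 0 ran from 8.16 to 8.52 (median 8.33) and uncovered day 3 from 8.32 to 8.67 (median 8.55). Covered day 3 was higher, at 9.12, 9.10, 9.41, 9.13 and 9.45, with no overlap with the uncovered arm. At day 5 the uncovered arm ran from 8.14 to 8.53 (median 8.32) and the covered arm gave 8.77, 8.63, 8.58, 8.20 and 8.30. It passed the background flag on all 5 covered day 3 arrays but on only 2 of 6 at day 0 and 1 of 6 at uncovered day 5, so its low values lie near background. Its partner UF_Ocu_AF_114084 (unwounded 9.33 and 9.34) was well above background on none of the uncovered day 3 or day 5 arrays.

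UF_Ocu_AF_105013 had unwounded values of 13.16 and 13.48. Day 0 ran from 11.18 to 12.07 (median 11.31) and uncovered day 3 from 11.34 to 12.62 (median 12.13). Covered day 3 gave 13.04, 12.73, 13.09, 12.56 and 12.71, just below the unwounded arrays. At day 5 it was 11.62 to 12.05 (median 11.91) uncovered and 12.49, 12.42, 12.45, 11.76 and 11.89 covered. No wound array reached either unwounded value.

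UF_Ocu_AF_111809 had unwounded values of 11.17 and 11.23. Day 0 ran from 9.65 to 10.85 (median 9.90). Day 3 stood at 10.61 to 11.46 (median 10.93) uncovered and at 10.92, 10.75, 11.03, 10.81 and 10.59 covered, with group means 0.24 and 0.38 below the unwounded mean. At day 5 it was 9.45 to 10.31 (median 9.98) uncovered and 10.25, 10.06, 10.37, 9.42 and 10.15 covered, all below the day 3 values of the same arm. Its time course was that of UF_Ocu_AF_108658 at a smaller scale. The contig partner UF_Ocu_AF_111808 changed from day 3 to day 5 by -0.74 ± 0.24 uncovered and -0.31 ± 0.27 covered (SE, limma adjusted p = 0.016 and 0.41). The covered drop was thus called in only 1 probe of this contig.

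UF_Ocu_AF_108811 averaged 12.04 in unwounded skin, 10.74 ± 0.13 (SD, n = 6) at day 0, and 10.89 ± 0.16 (SD, n = 6) and 10.97 ± 0.34 (SD, n = 5) at day 5 without and with cover. UF_Ocu_AF_113452 averaged 14.79, 13.57 ± 0.83 (SD, n = 6), 13.08 ± 0.43 (SD, n = 6) and 13.62 ± 0.44 (SD, n = 5) in the same order. UF_Ocu_AF_110467 averaged 9.61 in unwounded skin and was well above background on none of the 6 day 0 arrays. Of the members with the largest median falls beside these, UF_Ocu_AF_111184 and UF_Ocu_AF_100839 had their lowest group means at day 5, while UF_Ocu_AF_106356 was well above background on no array of day 0 or day 3 and on 3 of 5 at covered day 5. The unwounded arrays of these 3 lay far apart (11.56 and 10.66, 12.07 and 13.26, 9.46 and 10.45), and none of them is among the 20.

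The day 3 arrays entered the rule only through the limit between the arms, so day 3 is where the members' course was least fixed by the choice. By the authors' values, the fall at day 3 ran from 0.03 to 2.83 (median 0.90) in the uncovered arm and from -0.15 to 2.39 (median 0.71) in the covered arm, where a negative fall lies above unwounded skin. It was at least 0.8 for 47 members uncovered and 27 covered, and above 0 for 73 and 69. Averaged over the members, the arrays lay below the unwounded mean by 0.97 ± 0.17 (SD, n = 6) uncovered and by 0.73 ± 0.06 (SD, n = 5) covered. Between 50 and 72 members were well above background per array, with the fewest on a day 0 array and the most on an unwounded array.

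Tests used limma across 12342 probes, with Benjamini-Hochberg adjustment over all of them and a call at an adjusted p under 0.05, on scanner signals scaled to the 75th percentile of detected probes. They covered 71 of the 73 members. Of these, 41 were called lower than unwounded skin at uncovered day 3 (6.1% of all tested probes were) and 0 higher (7.6%), with 0 higher at an unadjusted p under 0.05 too. At covered day 3, 7 were called lower (0.956%) and 0 higher (1.6%, again 0 unadjusted). The median change of the members was -1.17 and -0.77, beside 0.05 and 0.09 over all tested probes. Both comparisons share the unwounded arrays that chose the members. They also hang on them: fewer members were called without unwounded replicate 2 or without slide 6, where 1 unwounded array is left. The medians were -0.90 and -0.46 without replicate 2, and the covered median was -0.46 without slide 6. With slide as a fixed block the calls were 13 and 4. The share of all tested probes called under these alternatives is not given here. These changes in the calls are therefore not read as a result about the members.

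The 7 members called in the covered arm are given with their values in both arms, and all but UF_Ocu_AF_102078 and UF_Ocu_AF_105070 were picked out after their values were seen. UF_Ocu_AF_102078 had unwounded values of 9.71 and 10.06 and day 0 values of 8.85 to 9.21 (median 9.04). It was lower still at day 3, at 8.54 to 8.64 (median 8.58) uncovered and at 8.44, 8.58, 8.48, 8.74 and 8.70 covered, where 3 of 5 arrays were well above background. Its change from unwounded skin was -2.23 ± 0.23 (SE) uncovered and -2.31 ± 0.24 covered on the scaled scanner signal (limma adjusted p = 1.8e-07 and 3.4e-06), and from day 0 it was -0.70 ± 0.16 and -0.78 ± 0.17 (limma adjusted p = 0.0013 and 0.00049). By day 5 it was back at 8.80 to 9.31 (median 9.04) uncovered and 9.17, 8.95, 8.88, 9.04 and 8.90 covered, overlapping the day 0 arrays on the authors' values. On the scaled scanner signals it was above day 0 by 0.80 ± 0.16 and 0.47 ± 0.17 (SE, limma adjusted p = 0.00015 and 0.022). The rule used the day 0 and day 5 means, so that comparison is descriptive. UF_Ocu_AF_102078 stood apart in other steps. It was the only tested member called lower at day 3 than at day 0 in either arm, where 15.1% and 18.2% of all tested probes were, and in the covered arm the only one called higher at day 5 than at day 3.

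UF_Ocu_AF_105070 had unwounded values of 11.26 and 12.11. It stood at 10.44 to 11.58 (median 10.70) at day 0, at 9.79 to 10.69 (median 10.33) at uncovered day 3 and at 10.11, 10.58, 10.19, 10.39 and 10.30 at covered day 3. Its day 3 changes from unwounded skin were -1.70 ± 0.39 and -1.66 ± 0.40 (SE, limma adjusted p = 0.0048 and 0.024). UF_Ocu_AF_104910 changed by -2.21 ± 0.37 and -2.52 ± 0.38, UF_Ocu_AF_109868 by -1.33 ± 0.27 and -1.44 ± 0.28, and UF_Ocu_AF_106008 by -0.93 ± 0.22 and -0.91 ± 0.23. UF_Ocu_AF_108216 was well above background on 4 of 6 uncovered and 3 of 5 covered day 3 arrays and changed by -1.75 ± 0.48 and -2.21 ± 0.49. UF_Ocu_AF_110904 was well above background on no day 3 array and on only 1 of the 2 unwounded arrays, so its level there is a bound and no size is given. None of the 7 met the rule with unwounded replicate 1 alone, so none is among the 20. Unwounded replicates 1 and 2 read 9.49 and 11.68 for UF_Ocu_AF_104910 and 13.70 and 15.06 for UF_Ocu_AF_109868. They read 10.42 and 11.38 for UF_Ocu_AF_106008, 8.68 and 10.70 for UF_Ocu_AF_108216 and 8.40 and 9.71 for UF_Ocu_AF_110904.

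By the authors' means, 61 members were higher than at day 0 at day 3 uncovered and 63 covered. In the limma fit 28 of 71 were called higher in the uncovered arm (20.5% of all tested probes) and 43 in the covered arm (26.3%). The median change was 0.65 and 1.03, beside 0.13 and 0.17 over all tested probes. Both comparisons share the day 0 arrays, which the rule required to be low, so a higher share than the background is partly built into the choice and is not read as a result about the members.

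The largest rises were those of UF_Ocu_AF_108658, 3.32 ± 0.54 uncovered and 3.54 ± 0.57 covered (SE, limma adjusted p = 2.5e-05 and 9.9e-06). Its partner UF_Ocu_AF_108659 rose by 1.41 ± 0.23 and 1.62 ± 0.24 (limma adjusted p = 2.4e-05 and 3.2e-06), from 13.20 to 15.03 (median 14.31) at day 0 to 14.90 to 16.12 (median 15.55) uncovered and 15.72, 15.69, 15.94, 15.91 and 15.85 covered. UF_Ocu_AF_101402 rose by 1.83 ± 0.30 and 2.32 ± 0.32 (limma adjusted p = 2.9e-05 and 9.4e-07). It stood at 11.39 and 11.32 in unwounded skin, at 8.90 to 10.22 (median 9.29) at day 0 and at 10.14 to 11.39 (median 10.36) at uncovered day 3, with 10.80, 10.85, 10.77, 11.53 and 11.04 covered.

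At day 3, 55 of the 73 members were higher in the covered than in the uncovered arm by the authors' means, and the difference ran from -0.71 to 0.79 with a median of 0.30. At day 5, 52 were, with a median of 0.12 and a range of -0.78 to 0.78, so the limit of 0.8 was nearly reached in both directions. In the limma fit 16 members were called higher in the covered arm at day 3 (9.07% of all tested probes) and 0 lower (7.23%, and 1 at an unadjusted p under 0.05). At day 5, 1 was higher (7.16%) and 0 lower (6.58%, and 1 unadjusted). The rule used these contrasts and capped them, so the counts are descriptive. Among members well above background on at least 3 arrays of each arm, the largest difference at day 3 was that of UF_Ocu_AF_114083, 1.49 ± 0.31 (SE). No tested member was called for a change of the covering difference between day 3 and day 5 (limma interaction, 0 lower against 0.105% and 0 higher against 0.0162% of tested probes; 10 and 0 at an unadjusted p under 0.05).

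By the authors' means 56 members were lower at day 5 than at day 3 in the uncovered arm and 60 in the covered arm, 52 in both. The arms share no arrays in this step, but the rule held their means within 0.8 of each other at day 3 and at day 5. Agreement between the arms, here and in the calls below, is therefore partly set by the choice. In the limma fit 16 of 71 were called lower uncovered (16.4% of all tested probes) and 7 higher (28.4%), and 20 were called lower covered (7.19%) and 1 higher (15.1%). The median change of the members was -0.11 uncovered and -0.39 covered, beside 0.27 and 0.12 over all tested probes. The uncovered share of lower calls was close to its background. The day 5 arrays were required to be low, so this step too is partly set by the choice.

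Of all 12342 tested probes, 626 (5.07%) were called lower in both arms, out of 2027 uncovered and 887 covered lower calls. Among the 71 tested members, 11 were called lower in both arms, 68.8% of their uncovered and 55% of their covered calls. The strongest were UF_Ocu_AF_108658 at -2.17 ± 0.54 uncovered and -2.35 ± 0.59 covered (SE, limma adjusted p = 0.0025 and 0.0069), UF_Ocu_AF_111184 at -1.71 ± 0.44 and -2.23 ± 0.49, UF_Ocu_AF_102739 at -1.68 ± 0.49 and -1.92 ± 0.54, and UF_Ocu_AF_102740 at -1.66 ± 0.43 and -2.15 ± 0.48. Then came UF_Ocu_AF_111809 at -0.97 ± 0.23 and -0.78 ± 0.26 and UF_Ocu_AF_100839 at -0.94 ± 0.27 and -1.41 ± 0.29. The other 5 changed by -0.64 to -0.75 uncovered and -0.62 to -0.99 covered. UF_Ocu_AF_114083 was called lower in the covered arm, by -1.23 ± 0.33 (SE, limma adjusted p = 0.0096); all 5 of the day 3 and 4 of the 5 day 5 arrays of that arm passed the background flag.

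The median GC content of the 60-base probes was 36.7% over the members (25% to 55%) and 35.8% over the 20 that met the rule with each unwounded array, against 43.3% over the probes of the class with a group mean of at least 9. Split by GC content into 4 bins, the class held 34 members among 2374 probes of 18.3% to 35% GC (1.43%), 27 of 1707 (1.58%) in the next bin, 9 of 1779 (0.506%) in the one after and 3 of 1935 (0.155%) in the bin of highest GC. The unwounded minus uncovered day 5 difference of all these probes moved with GC as well, with medians of 0.50, 0.21, -0.04 and -0.29 from the lowest to the highest bin. For covered day 5 the medians were 0.25, 0.08, -0.12 and -0.14, and for day 0 they were 0.04, 0.01, -0.14 and 0.03. After the median of its GC bin was taken off each fall, an alternative added after the data were seen, 42 members had 3 falls of at least 0.8, including 12 of the 20. The rule then gave 60 probes.

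Short motifs were counted on the strand the array files print. The letters AATAAA, known as a signal for 3′ end formation when near the end of a transcript, were in 13 of the 73 members (17.8%) and in 13% of the 7795 probes of the class with a group mean of at least 9, with 16.1% and 18.9% in the bins of lowest and next lowest GC that hold most members. The letters ATTTA, the core of AU-rich elements, were in 17 members (23.3%) and in 8.43% of those probes, with 16% and 8.44% in the same bins. On the opposite strand the shares for ATTTA were 12.3% of the members, 11.1% of the class and 21.1% of the bin of lowest GC, and for AATAAA 5.48%, 4.58% and 8.93%. A match describes only these 60 bases.

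Other probes lost at closure behaved differently at day 5 by choice. Under the same level and arm limits, 759 probes of the class lost at least 0.8 at day 0 and met a limit at day 5. In both arms they then lay less than 0.8 below unwounded skin, or above it by any amount. Of these, 403 (53.1%) met their rule with each unwounded array alone, where 27.4% of the members did. In the mirror set of 47 probes that stayed raised, 11 (23.4%) did. The median GC content of both of these sets was 45%. These sets rest on different limits, and the differences between them were not tested.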

How the data were processed

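The deposited series table held the authors' intensity values on a linear scale, 1 value per probe; the background correction behind them is not given in the sources used here, and the submitters' processing notes name limma. The members were chosen on the log2 of this table. The deposited scanner files held a processed intensity per spot, background-subtracted per the file headers and without scaling from array to array, and flags of 0 or 1 as other columns. For the tests, controls and outlier-flagged spots were dropped, log2 signals of spots of the same probe were averaged, and each array's 75th percentile over the 7446 probes detected on every array was subtracted (detected meaning flagged well above background). The 12342 probes detected on 2 or more arrays entered a single fit of all 30 arrays in 6 groups with no block (limma 3.58.1, R 4.3.3, lmFit and eBayes, 2-sided, Benjamini-Hochberg). The number of arrays limits the precision. The fit was also run on simulated arrays with known changes, drawn with independent noise and no slide effect. In the data the consensus correlation within slides was 0.35.

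The members and lists were chosen with earlier results of these data known. Named probes were the 12 members with the largest smallest fall over each unwounded array, the 3 with the largest median fall beside them, the probes nearest the threshold, and the 3 with the largest rise and the 3 with the largest further fall at day 3. Replicate numbers did not pair the samples. Alternatives covered scaling, background correction, the authors' table, the dim-probe filter, slide, scan day and replicate blocks, array weights, left-out arrays and the limits of the rule.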

Additional observations from a re-analysis of the deposited data

Results flagged for a closer look

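Over the named probes and the members' mean, 115 groups of 5 or 6 arrays were checked for 1 array far from the rest of its group, and 7 stood out, where chance gives about 1 in 20. UF_Ocu_AF_108658 read 17.12 on day 0 replicate 4, the others lying between 13.19 and 14.34, and 17.74 on covered day 5 replicate 2, the others lying between 14.41 and 15.36. Both values are close to its unwounded level. UF_Ocu_AF_112273 read 14.25 on uncovered day 5 replicate 5 (others 11.01 to 11.88), and its contig partner UF_Ocu_AF_112274 read 11.25 on the same array (others 8.70 to 9.38). UF_Ocu_AF_113452 read 13.93 on uncovered day 5 replicate 6 (others 12.76 to 13.05). UF_Ocu_AF_106356 read 7.98 on day 0 replicate 2 (others 7.83 to 7.88), where it was not above background on any array, and 10.72 on covered day 5 replicate 4 (others 8.05 to 8.66).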

How the results depend on the processing

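The rule gave 165 probes on scanner signals scaled to the 75th percentile of all probes (54 of them members), 162 after quantile normalization (55), 39 after normexp background correction (38), 194 with falls of at least 0.6 and 36 with falls of at least 1.0. It gave 76 on the main scaling of the scanner signals (45 shared), 75 and 50 with a level of 8 and 10, 90 over all probe classes and 49 without slide 6. Leaving out 1 array gave 44 to 295, both extremes from an unwounded array. Counts of called members follow as uncovered, then covered. The share of all tested probes called under each alternative is not given beside them, here or for the replicate block below. A shift in a count is therefore not read as a result about the members. Lower than unwounded at day 3 (41 and 7): normexp 12 and 1, 16 covered on the authors' values, slide as a fixed block 13 and 4, scan day 16 and 4, array weights 8 and 2, without slide 6 8 and 1, left-out arrays 6 to 43 and 1 to 21 (the extremes but 43 from an unwounded array; without covered day 5 replicate 1, 11 covered). Higher at day 3 than day 0 (28 and 43): normexp 11 and 20, array weights 47 uncovered, left-out arrays 24 to 34 and 40 to 45. Higher at day 5 than day 3 (7 and 1): all-probe percentile 2, quantile 2, normexp 1 and 0, on the authors' values 2 and with no filter 4 uncovered, slide as a random block 2, array weights 3 and without slide 6 3 covered, left-out arrays 3 to 8 and 1 to 2. Lower at day 5 than day 3 (16 and 20): quantile 25 and array weights 32 uncovered, normexp 11 covered, left-out arrays 10 to 18 (lowest without uncovered day 3 replicate 4) and 14 to 24. The covered median change from unwounded was -0.46 without slide 6 and -1.004 to -0.465 with arrays left out, and that from day 0 was 0.61 after normexp and 0.62 on the authors' values. The uncovered median from day 3 to day 5 (-0.11) was -0.49 after quantile normalization, -0.34 on the all-probe percentile and -0.0001 after normexp, and that from day 0 to day 3 (0.65) was 0.28 on the authors' values and 0.32 after normexp. The causes of these shifts were not tested, except that 1 unwounded array stays in the fits without the other or without slide 6 and is assumed to vary like the other groups.

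The numbers of the replicates did not pair the arrays: deviations from the group mean correlated between same-numbered arrays of other groups with a median r of -0.00 (63 pairs, 23 over 0.1), against 0.30 for arrays of the same slide. With the replicate block the counts were 31 and 5, 27 and 41, 8 and 1, and 15 and 19 in the order above, all within 1.5 times the counts without it. For the 22 named probes under all alternatives 0 changes reversed, 128 lost and 84 gained a call, and 5198 did neither, most often under normexp (26 lost). Low members lie near background, where only a bound on their fall is measured.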
